A study of Sus scrofa domesticus with 4 samples.

Results

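The transcripts of pregnant pig endometrium kept in culture without added hormone were read from the untreated channel of 4 dual-colour oligonucleotide arrays. Each array carried RNA of untreated explants in the first of its dyes or the second, and RNA of explants exposed to 10 nM orexin B, a hypothalamic peptide, in the other. The untreated RNA therefore made up 4 of the 8 channels of the series. By the dye label of each array it was in Cy3 on arrays 1 and 3 and in Cy5 on arrays 2 and 4. Neither the treated channel nor the ratio of the channels was ranked for the levels given here. The deposited signal already held the scanner software's dye correction, so its independence of the treated channel was not tested. An alternative that took Cy3 as untreated throughout read the other channel of arrays 2 and 4.

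The explants came from crossbred gilts (Large White and Polish Landrace), aged 7 to 8 months and weighing 120 to 130 kg, on days 15 to 16 of gestation. Slices of 100 mg, 3 mm thick, were held in 2 mL of medium 199 for 2 h and then for 24 h with nothing added, so every level below is that of tissue after about a day in culture. Explants were cultured in duplicate, and the RNA integrity numbers were 8 to 10. The labels name 4 animals without saying which animal is on which array, so the 4 arrays were taken as the replicates and the SD over them holds animal, culture, dye and array together.

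In the pig the conceptus attaches to the surface of the uterine lining and does not invade it. Around attachment the uterine glands secrete histotroph, a mixture of carrier proteins, protease inhibitors and enzymes that feeds the conceptus, while the conceptus releases oestrogen, an interleukin 1 beta and interferons to which the endometrium responds. An endometrial slice holds surface and glandular epithelium, stromal fibroblasts, vessels and leukocytes.

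The level of a gene is given as a percentile: the position of its probe when all probes with a RefSeq gene name were ordered by untreated signal within an array, with 100 as the brightest. There were 6700 such probes of 3029 genes among 43603 non-control probes, and a gene with several probes took the one with the highest mean percentile. Values are means ± SD over the 4 arrays unless arrays are listed, and lists of values run from array 1 to array 4. The brightness of a probe also depends on how well it hybridises, so the order is that of probe signals and not of molecule numbers. In tissue, fewer cells of a type and less RNA per cell cannot be told apart.

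The 4 channels differed in how much rose above background. The share of spots well above background was 27.8% on array 3 and 30.4% on array 1 (Cy3), and 46.8% on array 2 and 82.4% on array 4 (Cy5). No spot was saturated. Array 2 was on another slide and was scanned on another day than arrays 1, 3 and 4. The order of the named probes was nevertheless close between arrays, with Spearman correlations of 0.944 to 0.972 over all named probes, and of 0.905 to 0.966 over the 3284 that were well above background on all 4 arrays. These correlations are across probes, which are not independent replicates. Of the 100 brightest genes of an array, 81 to 90 were shared with any other array, and 75 genes were among the 100 brightest on all 4. The pair with the lowest correlation, arrays 2 and 4, shared a dye, and so did the pair with the highest, arrays 1 and 3.

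Of the 3029 genes, 1481 (48.9%) were well above background on 4 of 4 arrays by the probe that represents them and 224 on none. No probe at all passed on any array for 214 genes. A further 680 genes passed on 1 array only. The share of named probes passing was 54.0%, 70.5%, 50.2% and 91.2% on arrays 1 to 4, so a pass on 1 array is weak evidence of presence. Another 449 genes passed on both Cy5 arrays and neither Cy3 array, and 0 genes did the reverse. The median gene had a mean percentile of 49.0, and 250 genes (8.25%) had a mean of 90 or more, all of them above background on 4 of 4 arrays. These shares are the background against which gene lists are read below. The flag and the percentile come from the same signal and are not separate evidence. The share of genes passing on 4 of 4 arrays was 0% under a percentile of 25, 5.8% between 25 and 50, 94.4% between 50 and 75 and 100% from 75 up. The spread over arrays shrank towards the top of the order. The median SD was 1.07 percentile points for genes at 90 and above, 2.54 between 75 and 90, 4.02 between 50 and 75 and 6.21 between 25 and 50. The signal was concentrated: the brightest 10% of named probes held 72.6% to 80.7% of the summed signal of an array.

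The top of the order held, among others, genes of translation, iron storage and uterine secretion and genes that interferons can induce. TPT1, the translationally controlled tumour protein, stood first with a mean percentile of 99.94 ± 0.07, and its probe was the brightest named one on array 1. ISG12(A), an interferon-stimulated gene, came second at 99.87 ± 0.19 and was the brightest on array 2. MUC13, a membrane mucin of epithelia, followed at 99.72 ± 0.20 and the brightest on array 4. The ferritin light chain FTL (99.66 ± 0.45) was the brightest on array 3, and the heavy chain FTH1 followed at 99.63 ± 0.47. Both ferritin chains, which store iron, were lowest on array 1, at 99.0 for FTL and 98.9 for FTH1. B2M, the light chain of class I antigen-presenting molecules, stood at 99.2, 99.5, 99.9 and 99.7. The SDs are of the size of the steps between neighbours here, so the first 10 genes have no settled order among themselves.

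**Figure D1:**
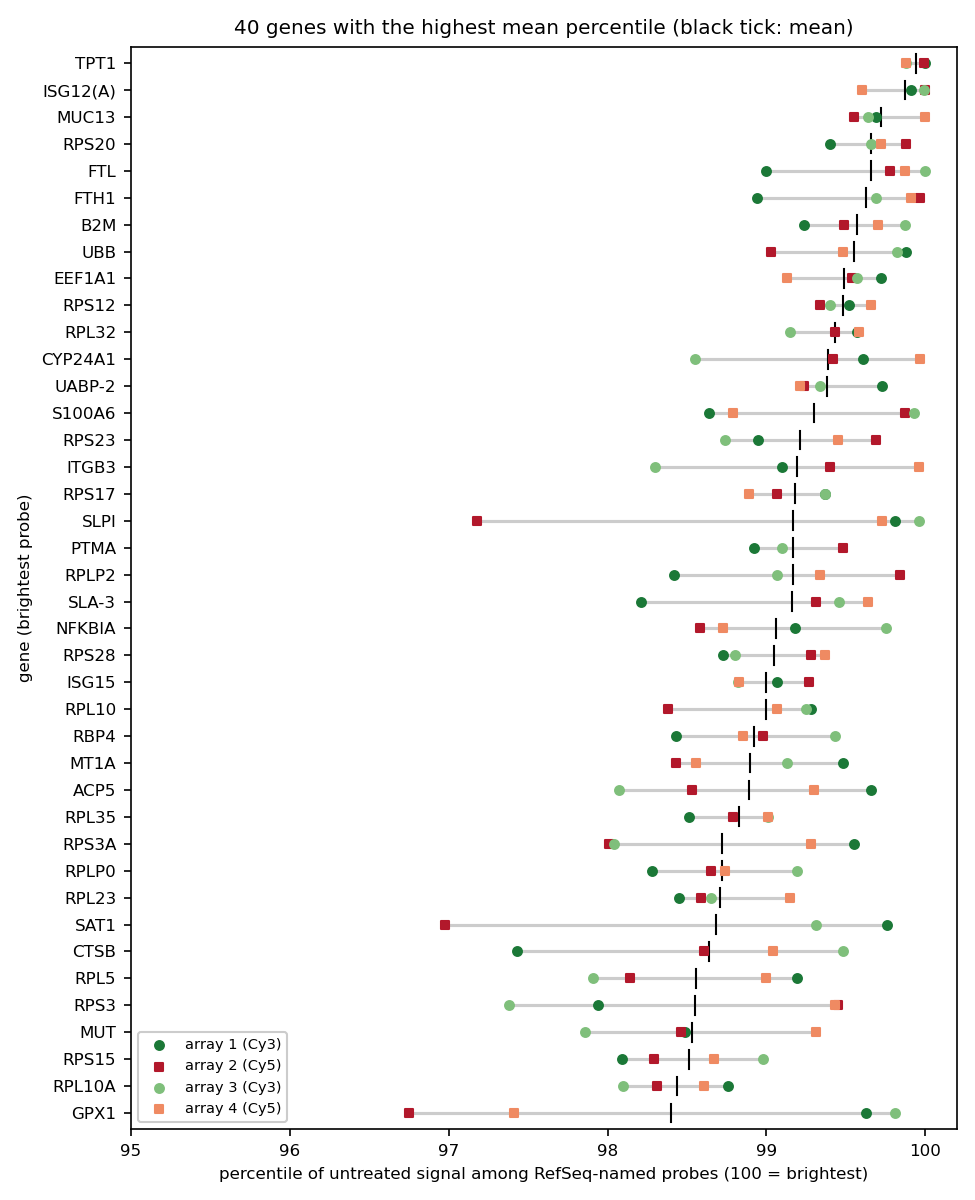
Percentile of the 40 genes with the highest mean, on a horizontal axis that starts at 95, with 1 point per array (circles for untreated RNA in Cy3, squares for Cy5) and a black tick for the mean; PTMA and SAT1 have no value on array 4 because of outlier spots. No point lies below 96.8, and the longest spans belong to SLPI, SAT1 and GPX1, whose lowest points, at 97.2, 97.0 and 96.8, are all on array 2.

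Of the 40 brightest genes, 16 encode cytosolic ribosomal proteins, led by RPS20, RPS12 and RPL32, and 2 belong to the translation factor list (TPT1 and EEF1A1). Another 5 belong to the list of uterine secretory proteins: UABP-2, SLPI, RBP4, ACP5 and CTSB. The iron storage, metallothionein and antioxidant list gave 4, namely FTL, FTH1, the metallothionein MT1A (98.9 ± 0.49) and the peroxide-reducing enzyme GPX1 (98.4 ± 1.6). The interferon-induced list gave B2M and ISG15. A further 8 genes were in no list: ISG12(A), MUC13, the polyubiquitin gene UBB, the vitamin D 24-hydroxylase CYP24A1, prothymosin alpha (PTMA), the NF-kappaB inhibitor NFKBIA, the polyamine acetyltransferase SAT1 and the mitochondrial enzyme MUT. None of the 12 cell type marker lists had a member among the first 40. Each of them holds at most 0.43% of all named genes, so 0 members in 40 places says little. Of all named genes, 1.19% are in the ribosomal list, 0.76% each in the secretory and iron storage lists, and 77.98% in no list. The translation factor and interferon-induced lists hold 0.17% and 0.89%. The tetraspanin CD9, a member of the epithelial and the attachment lists, was in place 42.

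Ribosomal protein genes were at the top as a group. All 36 measured were well above background on 4 of 4 arrays and 34 had a mean of 90 or more. Their median was 98.1, with array medians of 98.1, 98.2, 97.8 and 98.4. The lowest members were RPL3 at 87.5 ± 0.65 and RPL26L1 at 83.8 ± 1.2. Ribosomal genes and EEF1A1 have many near-identical processed copies, so a probe can read more than the gene it is named for. The 5 translation factors had a median of 94.2.

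The uterine secretion list gave the second largest number of members among the 40 brightest genes, although the list as a whole was less bright. Which cells of the slice carried these transcripts was not tested. UABP-2, a serpin of the uteroferrin-associated protein family, stood at 99.7, 99.2, 99.3 and 99.2. ACP5, which is uteroferrin, the iron-carrying acid phosphatase of pig uterine secretion, stood at 99.7, 98.5, 98.1 and 99.3. RBP4, the retinol carrier, stood at 98.4, 99.0, 99.4 and 98.9. All 3 stayed within 2 percentile points over the arrays. ACP5 and RBP4 overlapped between dyes, while UABP-2 was lower on both Cy5 arrays. SLPI, an inhibitor of leukocyte elastase, was at 99.7 or above on arrays 1, 3 and 4 and at 97.2 on array 2. Of the 23 histotroph genes measured, 14 were well above background on 4 of 4 arrays and 5 were at 90 or more, with a list median of 71.7. The lowest were the growth factor FGF9 at 26.3 ± 12 and the folate receptor FOLR2 at 26.2 ± 10, each above background on at most 2 arrays. The cytokine LIF, which is known from implantation, stood at 34.9 ± 3.8 and was above background on 2 arrays.

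Proteases and their inhibitors were bright almost throughout. All 22 measured were well above background on 4 of 4 arrays, 11 of them at 90 or more, with a median of 90.3. After SLPI, the highest were the lysosomal protease CTSB at 98.6 ± 0.88, the urokinase PLAU at 96.7 ± 2.0 and the metalloproteinase inhibitor TIMP1 at 96.3 ± 2.0. PLAU stood at 94.8 and 95.0 on the Cy3 arrays and at 98.2 and 98.6 on the Cy5 arrays, and TIMP1 was split the same way, at 94.0 and 95.3 against 97.7 and 98.3. The lowest members were the cathepsin CTSZ at 52.5 ± 7.9 and the sheddase ADAM17 at 49.1 ± 7.3.

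Among the 20 attachment and adhesion genes the median was 75.8, with 15 above background on 4 of 4 arrays and 7 at 90 or more. The integrin subunit ITGB3 stood at 99.1, 99.4, 98.3 and 99.96, though its other probe averaged 77.0. The tetraspanin CD9, an integrin partner, was at 98.4 ± 0.74. The galectins LGALS3 and LGALS1, which bind cell surface sugars, were at 97.7 ± 0.71 and 92.4 ± 1.7. The integrin subunit ITGB6, at 14.1 ± 7.0, and the matrix protein VTN, at 22.5 ± 2.1, were each above background on 1 array.

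Of the cell classes of the uterine lining, the epithelium had the highest list median, over the markers that were measured. Of 21 epithelial markers listed, 10 had a probe with a RefSeq gene name, and KRT7, KRT18, KRT19 and MUC1 had none. All 10 measured epithelial markers were well above background on 4 of 4 arrays, with a median percentile of 80.8 (array medians 84.2, 85.1, 79.8 and 77.6). CD9, which is also in the attachment list, led at 98.4, and which cells carried it was not tested. After CD9 came the tight junction protein CLDN3 at 94.9 ± 1.8, the adhesion molecule EPCAM at 93.4 ± 1.4 and the keratin KRT8 at 89.8 ± 3.4. The junction protein CLDN4 (74.5 ± 4.4) and the mucin MUC20 (60.3 ± 3.9) were the lowest. CLDN3 stood at 97.3, 92.9, 94.6 and 94.9, and EPCAM at 95.5, 92.3, 92.8 and 93.1, so both were highest on array 1. KRT8 was at 91.1 to 91.9 on arrays 1 to 3 and at 84.8 on array 4. Its other probes averaged 77.2 and 52.7, the latter above background on 3 arrays. The lowest probes of EPCAM and CD9 averaged 81.6 and 86.2.

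Endothelial markers had a median of 76.3 (array medians 71.7, 78.4, 76.4 and 80.5), with 7 of 8 above background on 4 of 4 arrays. CDH5, the cadherin of endothelial junctions, was at 88.2 ± 1.7, PECAM1 at 87.8 ± 4.1, the clotting protein VWF at 79.3 ± 7.3 and the nitric oxide synthase NOS3 at 79.1 ± 4.1. All 7 had their lowest value on array 1. Of the 1465 genes above background and measured on 4 of 4 arrays, 371 were lowest on array 1. So were 10 of 12 genes of class I antigen processing and 7 of 8 of class II antigen presentation. The endothelial levels rest on the brightest probe of each gene. A second probe averaged 41.0 for CDH5, 33.9 for VWF and 15.9 for NOS3, and the lowest PECAM1 probe averaged 56.1. SELE, the selectin of inflamed endothelium, was at 33.2 ± 11 and above background on 2 arrays.

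Stromal fibroblast markers had a median of 72.0 over 6 measured of 15 listed genes (array medians 80.8, 64.0, 72.2 and 83.6). COL1A1, COL3A1, VIM and PDGFRA, also listed, had no probe with a RefSeq gene name. Of the 6 measured, 5 were above background on 4 of 4 arrays. The order of these classes changed between arrays, since the fibroblast median exceeded the endothelial one on arrays 1 and 4 and the epithelial one on array 4, and it is an order of different probes. The gelatinase MMP2, at 92.5, 93.7, 94.2 and 96.7, and the proteoglycan DCN, at 92.2, 90.3, 94.9 and 92.7, were the brightest. The collagen gene COL1A2 varied more, at 80.8, 71.2, 83.0 and 93.4. Array 4 was the highest and array 2 the lowest for COL1A2. THY1, a surface protein of many fibroblasts, stood at 11.9 ± 4.0 over the 3 arrays that measured it. Smooth muscle and pericyte markers had a median of 71.2 and 8 of 9 above background. They were led by ACTA2 at 85.8 ± 3.2, the myosin light chain MYL9 at 82.0 ± 2.7, desmin (DES) at 81.7 ± 7.9 and RGS5, a pericyte gene, at 75.9 ± 4.7. The other DES probes averaged 38.8, 38.4 and 15.5. ACTA2 is nearly identical in sequence to ACTA1 (87.8 ± 1.1) and ACTC1 (76.5 ± 3.7), the actins of skeletal and heart muscle, so these 3 cannot be assigned with certainty.

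Leukocyte markers were lower and less even. Of 12 macrophage and myeloid markers, 10 were above background on 4 of 4 arrays, with a median of 62.1. AIF1, a macrophage calcium-binding protein, stood at 73.4 ± 7.9, and the receptor chains FCER1G and TYROBP at 70.3 ± 9.3 and 69.6 ± 10. The lipopolysaccharide receptor CD14 was steadier at 69.8 ± 2.9. The complement gene C1QC (45.2 ± 14) and the mannose receptor MRC1 (41.9 ± 7.3) were the lowest. Of 13 T and NK cell markers, 2 passed on all arrays, with a list median of 42.7, which is below that of all named genes. Those were the granule protease GZMB at 69.0 ± 12 and NKG7 at 59.4 ± 9.2. The T cell receptor subunit CD3D (18.1 ± 5.8) and the NK receptor NCR1 (13.6 ± 2.3) were each above background on 1 array, and a second CD3D probe, at 16.3, on 2 arrays. The B cell markers CD79A (29.6 ± 3.8) and MS4A1 (27.0 ± 4.0) were each above background on 1 array, and the list median was 27.0.

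The granulocyte and mast cell list had 4 measured members and a median of 67.1. KIT, the receptor of mast cells, was at 82.3 ± 8.3, and the neutrophil calcium-binding proteins S100A8, S100A12 and S100A9 were at 70.0 ± 14, 64.2 ± 17 and 53.1 ± 5.8. KIT is also made by other cells. The array medians ran from 50.6 on array 1 to 84.0 on array 4.

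**Figure D2:**
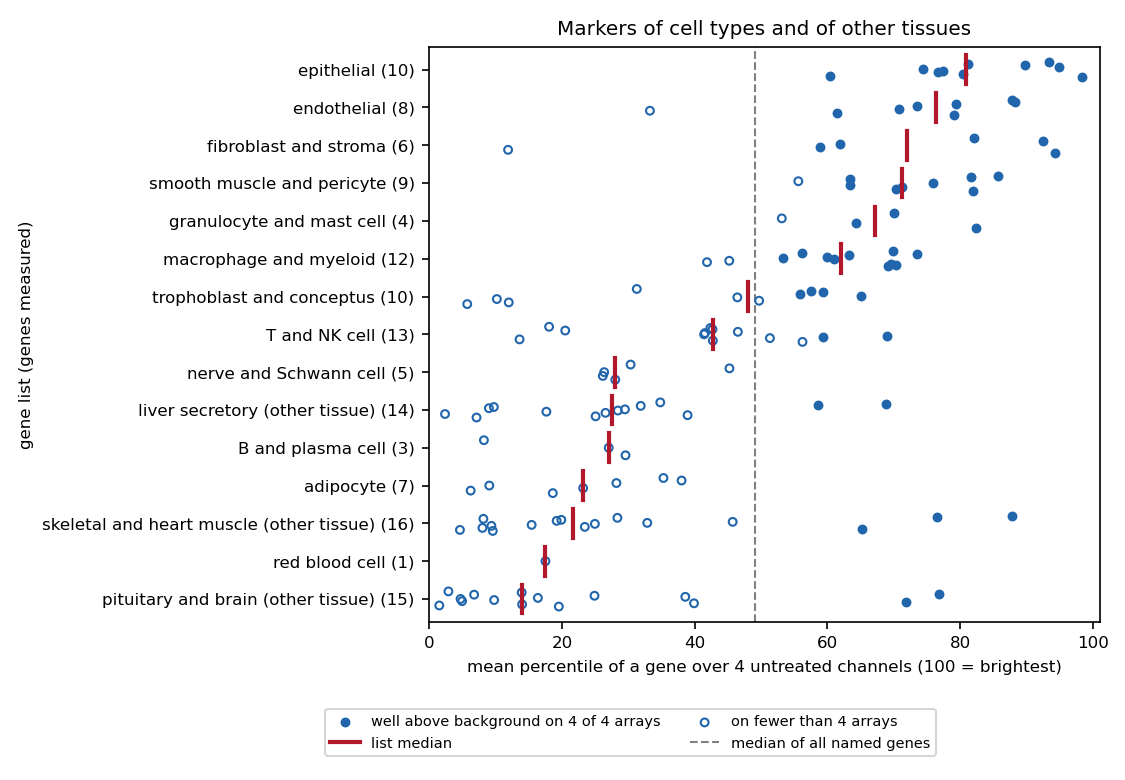
Mean percentile of each measured marker (points; filled where the probe was well above background on 4 of 4 arrays, open otherwise), with the number of genes in brackets, the list median as a red bar and the median of all named genes, 49.0, as a dashed line. Epithelial, endothelial, stromal and smooth muscle lists have medians of 71.2 to 80.8, and the T and NK cell, B cell, adipocyte and nerve lists have medians of 42.7 or less.

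Markers of tissues that a slice of endometrium should lack were at the bottom. Of 15 pituitary and brain genes, 13 were not above background on all arrays, and the median was 13.99. The exceptions were POMC, the precursor of corticotropin, at 76.8 ± 3.8 and oxytocin (OXT) at 71.9 ± 7.2, while growth hormone (GH1) and the melanocortin receptor MC4R stood at 2.9 ± 1.2 and 1.5 ± 1.2. Another POMC probe averaged 20.4. The 14 liver secretory genes had a median of 27.5, with albumin (ALB) at 34.8 ± 3.6 and the clotting factor F9 at 2.4 ± 0.89, and the apolipoproteins APOA1 (68.9 ± 5.9) and APOA2 (58.5 ± 2.3) as the 2 members above background throughout. The 16 muscle genes had a median of 21.7, and beside the actins the transcription factor MYOG (65.2 ± 2.8) passed on 4 of 4 arrays. None of the 7 adipocyte genes passed on 4 of 4 arrays, with leptin (LEP) at 38.02 ± 6.9 and adiponectin (ADIPOQ) at 35.3 ± 8.6 as the highest, each above background on 1 array. The 5 nerve and Schwann cell genes had a median of 28.0, none of them above background throughout. The red blood cell list had a single measured member, the embryonic globin HBE1, at 17.5 ± 5.6.

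Markers of the conceptus were examined as those of another tissue that a slice of pregnant endometrium could carry. Of 10 trophoblast and conceptus genes, 4 were above background on 4 of 4 arrays, and the median of 48.1 lay next to that of all genes. The transcription factor GATA2 was at 70.9, 69.0, 52.3 and 67.8, and TFAP2C at 47.3, 67.0, 56.4 and 66.7. IL1B2, the interleukin 1 beta form made by the pig conceptus, was at 57.6 ± 1.6, and aromatase (CYP19A1) at 55.9 ± 4.6. IL1B2 resembles the maternal gene IL1B and CYP19A1 resembles 2 further aromatase genes, so these levels are uncertain. They also rest on the brightest probe: the other IL1B2 probes averaged 21.45 and 18.52, and the other CYP19A1 probe 16.21. None of these other probes was above background on 4 of 4 arrays. The trophectoderm factor CDX2 (10.2 ± 2.4) and the yolk sac protein AFP (5.7 ± 3.4) were not well above background on any array.

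Genes that interferons induce were bright as a class. Of 27 measured, 26 were above background on 4 of 4 arrays and 7 were at 90 or more, with a median of 81.6. After B2M came the ubiquitin-like protein ISG15 at 99.1, 99.3, 98.8 and 98.8, the chemokine CXCL10 at 97.3, 98.7, 95.2 and 98.1, and the antiviral GTPase MX1 at 96.6, 98.3, 98.3 and 93.7. ISG15 hardly differed between arrays, whereas MX1 was lowest on array 4. The lowest members were the chemokine CXCL11 at 63.4 ± 13 and the antibody receptor TRIM21, which ran from 33.2 on array 3 to 59.4 on array 2. Class I antigen presentation, which shares B2M, PSMB8 and PSMB9 with the interferon list, had a median of 90.2, with 12 of 13 above background. SLA-3 and SLA-5, heavy chains of pig class I, were at 99.2 ± 0.65 and 97.3 ± 1.1, and the proteasome subunit PSMB10 at 95.8 ± 0.34. Class I heavy chains are alike in sequence, so single chains are uncertain. SLA-7, a non-classical chain, stood at 17.4 ± 7.4 and the peptide transporter TAP2 at 53.3 ± 3.2.

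The class II genes, which present antigen to T helper cells, had a median of 80.9, with 8 of 9 above background on 4 of 4 arrays. SLA-DRA stood at 92.5, 95.7, 94.1 and 97.0, SLA-DQB1 at 90.7, 94.3, 93.4 and 95.8, and SLA-DQA1 at 88.9, 94.5, 92.5 and 95.4. In all 3, array 4 was the highest and array 1 the lowest. SLA-DRB1 ran over a wider range, from 80.7 on array 1 to 92.5 on array 4.

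Of 28 cytokines and chemokines, 20 were above background on 4 of 4 arrays and 7 were at 90 or more, with a median of 67.8. The neutrophil-attracting chemokines CXCL2 (95.8 ± 1.2) and CXCL8 (94.0 ± 3.4), the membrane chemokine CXCL16 (94.4 ± 2.3) and the macrophage factor MIF (94.2 ± 1.5) led. CXCL8 stood at 95.5, 96.8, 94.8 and 89.1, lowest on array 4. Complement had a median of 53.3, near that of all genes, with the inhibitor SERPING1 (89.3 ± 2.9), C4A (88.6 ± 2.8), the protease C1S (88.4 ± 3.5) and clusterin (CLU, 86.0 ± 6.6) at its top. The terminal components C7 (12.4 ± 6.0) and C8A (1.8 ± 1.4) were at its foot.

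The chaperone, stress and hypoxia lists had medians above that of all named genes in these cultured slices. Of 15 chaperone genes, 14 were above background on 4 of 4 arrays, with a median of 88.5, led by the cyclophilin PPIA (98.2 ± 0.67) and the endoplasmic reticulum chaperone HSP90B1 (97.3 ± 2.5). HSP90B1 stood at 99.4 and 99.2 on the Cy3 arrays and at 94.1 and 96.7 on the Cy5 arrays. Immediate early and stress genes had a median of 80.4 over 13, with the transcription factors JUN at 98.1 ± 1.8, ATF4 at 97.2 ± 1.2 and KLF6 at 96.5 ± 4.6, the growth arrest gene GADD45A at 86.8 ± 7.2, and the feedback inhibitor SOCS3 (37.2 ± 2.7) and EGR2 (15.2 ± 3.4) as the lowest. JUN stood at 99.3, 95.6, 99.6 and 97.8, with array 2 the lowest. The hypoxia list had a median of 82.6 over 8 genes, and its lowest member, EPO, was at 7.38. The mTOR inhibitor DDIT4 was at 96.7, 92.9, 99.0 and 94.3, the vasodilator peptide ADM at 94.6 ± 0.79 and the hypoxia-inducible factor EPAS1 at 89.0 ± 5.0, while VEGFA was at 59.0 ± 5.5. No uncultured tissue was analysed here, so whether culture set these levels was not tested.

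The cytoskeleton list, with 16 of 16 genes above background on 4 of 4 arrays and a median of 88.1, was led by the calcium-binding S100A6 (99.3 ± 0.69) and the actin-binding TMSB10 (98.2 ± 0.86), and its lowest members were PFN1 (70.0 ± 1.8) and MSN (61.5 ± 3.3). Energy metabolism was also in the upper part of the order. The 29 respiratory chain genes had a median of 89.6, with 25 above background on 4 of 4 arrays and the cytochrome c oxidase subunits COX6A1 (97.4 ± 0.47) and COX5B (96.1 ± 0.36) first. The 11 glycolytic genes had a median of 86.1, and 9 of them were above background on 4 of 4 arrays. GAPDH stood at 96.2, 99.1, 98.8 and 99.0, PGK1 at 93.3, 92.6, 95.4 and 90.4, and LDHB at 93.3 ± 0.76. The hexokinase HK1 was at 94.2 ± 1.3, while HK2 was above background on 1 array only. Of 11 genes used as references in pig quantitative PCR, 10 were above background throughout. They ran from B2M (99.6) and RPLP0 (98.7 ± 0.37) down to the transferrin receptor TFRC (31.6 ± 7.2).

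**Figure D3:**
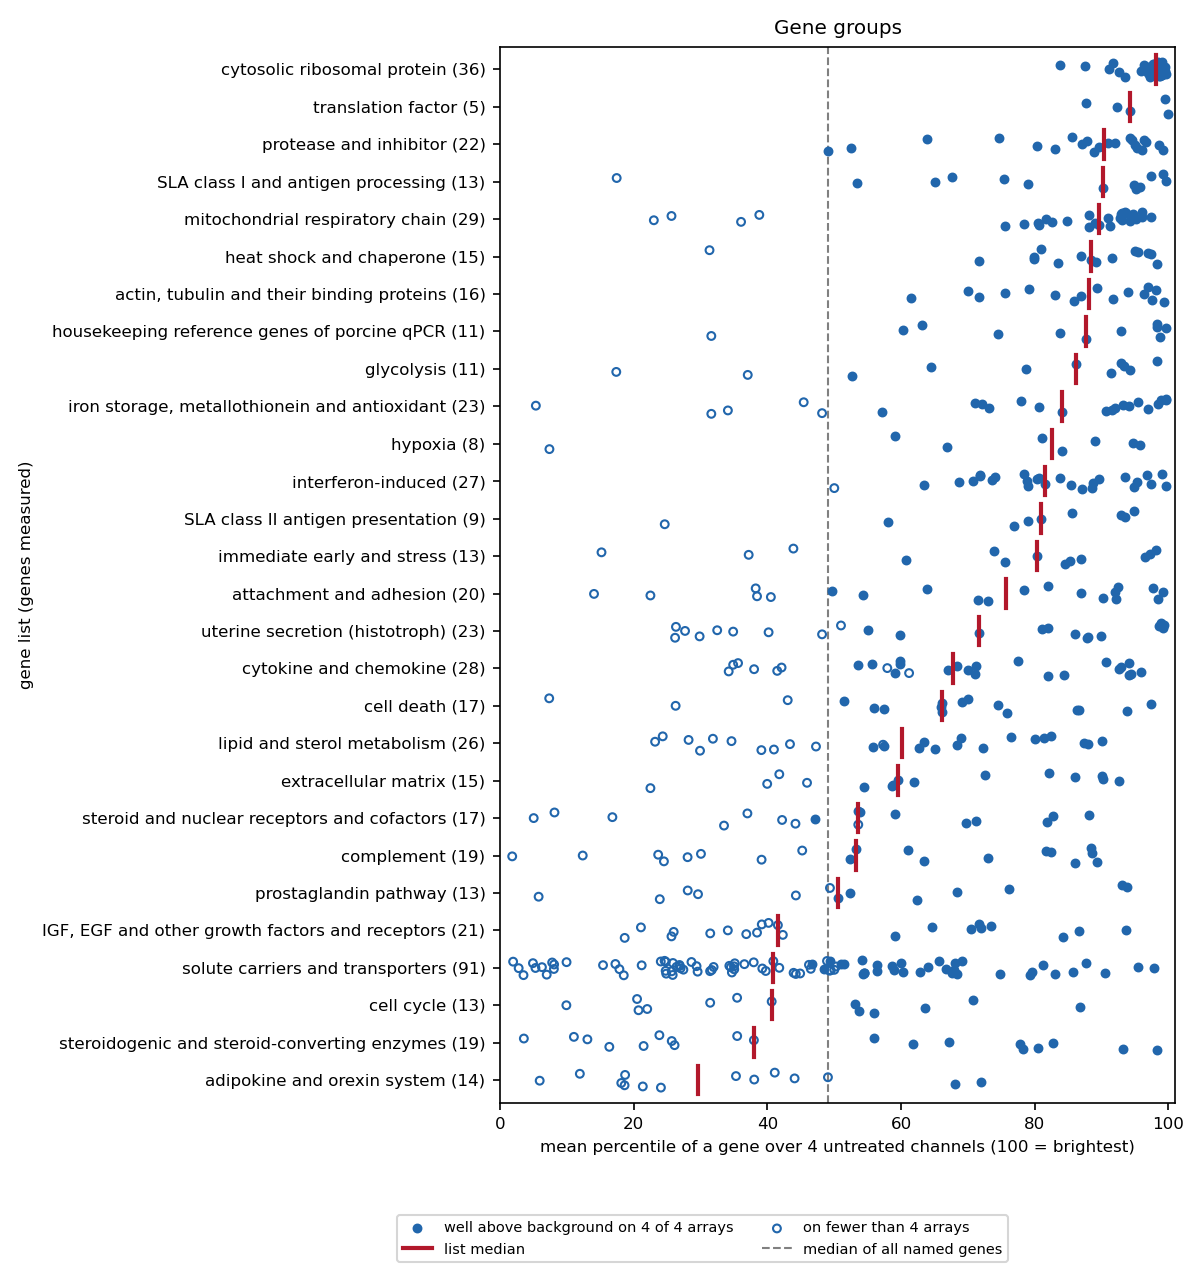
Mean percentile of each measured gene in 28 gene groups, drawn with filled points for genes well above background on 4 of 4 arrays, open points for the others, a red bar for the median and a dashed line at 49.0 for all named genes. Ribosomal, translation, protease and class I groups lie furthest to the right, with medians of 90.2 to 98.1, and the adipokine and orexin group furthest to the left, with a median of 29.7.

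Receptors and hormone pathways were dimmer than these. The 17 steroid and nuclear receptor genes had a median of 53.5, with 9 above background on 4 of 4 arrays. The membrane-associated progesterone-binding proteins PGRMC1 and PGRMC2 were at 88.2 ± 1.6 (3 arrays) and 82.8 ± 2.4, and the orphan receptor NR2F2, a stromal factor of the uterus, at 71.3 ± 6.1. The progesterone receptor PGR, at 55.3, 51.2, 53.3 and 54.2, and the oestrogen receptor ESR1, at 49.0, 57.5, 50.5 and 58.1, were above background throughout and near the median of all genes; both are named for their known role in the uterus, after their values were seen. The second oestrogen receptor, ESR2 (8.1 ± 13) and PPARA (5.0 ± 1.8) were not well above background on any array. The prostaglandin pathway had a median of 50.6 over 13 genes, with the inducible cyclooxygenase PTGS2 at 92.4, 94.2, 92.7 and 92.7 and the prostaglandin E synthase PTGES at 92.6, 95.1, 92.4 and 94.9. Both enzymes were among the brightest 10%, while the transporter SLCO2A1 (23.9 ± 7.7) and the prostaglandin F receptor PTGFR (5.8 ± 2.2) were above background on 2 arrays and 1 array. Of 19 steroidogenic and steroid-converting genes, 9 were above background on 4 of 4 arrays, with a median of 37.97. The sulfotransferase SULT1A3 (98.3 ± 1.7) and the cholesterol-binding mitochondrial protein TSPO (93.2 ± 0.88) led, and CYP17A1, which makes androgens, stood at 11.04 ± 7.3.

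Growth factors and their receptors had a median of 41.6 over 21 genes, with 9 above background on 4 of 4 arrays. The binding protein IGFBP7 stood at 93.6 ± 2.7, the receptor EGFR at 86.6 ± 2.3, the vessel-destabilising ligand ANGPT2 at 84.2 ± 2.2 and IGFBP2 at 73.4 ± 3.4. The growth hormone receptor GHR (18.6 ± 8.9) and IGFBP4 (21.1 ± 4.9) were above background on 1 array each.

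The orexin genes were dim in untreated endometrium. The precursor HCRT stood at 45.0, 38.9, 32.2 and 48.2 and was well above background on 2 of 4 arrays. The receptor HCRTR1 lay between 3.0 (array 4) and 29.0 (array 2) and was not well above background on any array. The receptor HCRTR2 stood at 23.8, 4.3, 21.3 and 25.4, with 1 array above background. HCRTR1 was thus not detectable at this signal, which does not show that it was absent, and values under background have no order between arrays. In the list of 14 adipokine and orexin genes, the chemerin precursor RARRES2 (71.9 ± 6.7) and the NAD-synthesising enzyme NAMPT (68.0 ± 3.2) were the 2 above background on 4 of 4 arrays. The adiponectin receptors ADIPOR1 (49.0 ± 0.94) and ADIPOR2 (44.1 ± 2.3) passed on 3 arrays, and the leptin receptor LEPR (5.9 ± 5.9) on none.

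Several lists leaned to a single array. Over the 1465 genes that were above background and measured on 4 arrays, 450 were highest on array 2, 414 on array 4, 318 on array 1 and 283 on array 3. The lowest value was on array 2 for 454 of them, on array 4 for 451, on array 1 for 371 and on array 3 for 189. Against this, 8 of 8 class II genes, 8 of 10 macrophage genes, 8 of 11 matrix genes and 3 of 3 granulocyte and mast cell genes were highest on array 4. Of 9 glycolytic genes, 7 were highest on array 3 and 7 lowest on array 4. Array 2 was the highest for 15 of 26 interferon-induced genes. The granulocyte and mast cell median was 50.6, 72.4, 62.2 and 84.0 on the 4 arrays, and the T and NK cell median 33.5, 51.7, 43.1 and 51.1. Arrays 1, 3 and 4 share a slide, so the differences between arrays 3 and 4 lie within it, where animal and dye cannot be told apart. For array 2, animal and slide cannot be told apart either.

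**Figure D4:**
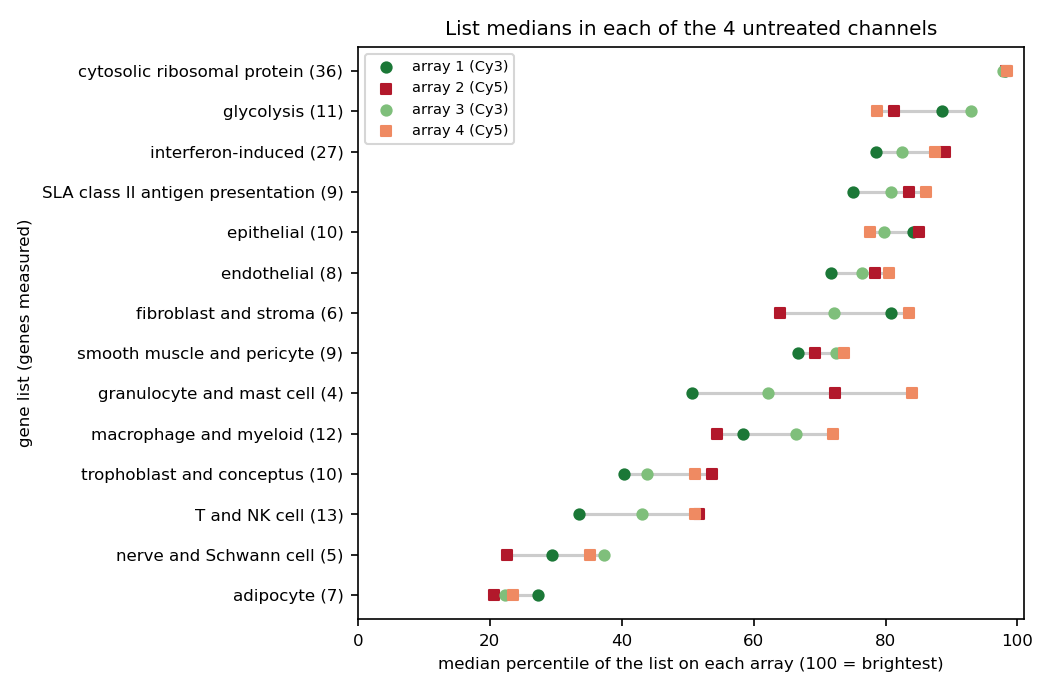
Median percentile of 14 gene lists on each array (circles for untreated RNA in Cy3, squares for Cy5, 1 colour per array), with a grey line from the lowest to the highest array. The ribosomal medians coincide at 97.8 to 98.4, while the granulocyte and mast cell medians run from 50.6 on array 1 to 84.0 on array 4.

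The 15 genes with the largest SD among those above background on 4 of 4 arrays included chemokines, neutrophil genes and interferon-induced genes. LOC396781 stood at 74.1, 52.8, 87.5 and 89.4 (SD 16.9), and the lymphocyte-attracting chemokine CCL20 at 78.4, 67.0, 79.5 and 43.5. The antiviral gene OASL stood at 72.5, 91.0, 80.2 and 52.5, so array 2 was the highest and array 4 the lowest. CXCL11, SELP, PGLYRP2, GZMB and the metalloproteinase MMP3 were also highest on array 2. S100A12 stood at 43.3, 70.5, 60.5 and 82.5, and S100A8 at 54.2, 76.4, 63.9 and 85.5. Both S100 genes, which neutrophils make in quantity, had the same order of arrays. The macrophage scavenger receptor CD163 was also highest on array 4, at 73.3, but lowest on array 2, at 37.8. CLDN10, a junction protein, and PPIL6 were lowest on array 4, while the bacterial lipoprotein receptor TLR2, at 81.2, 59.2, 51.8 and 52.9, and gastrin (GAST) were highest on array 1.

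**Figure D5:**
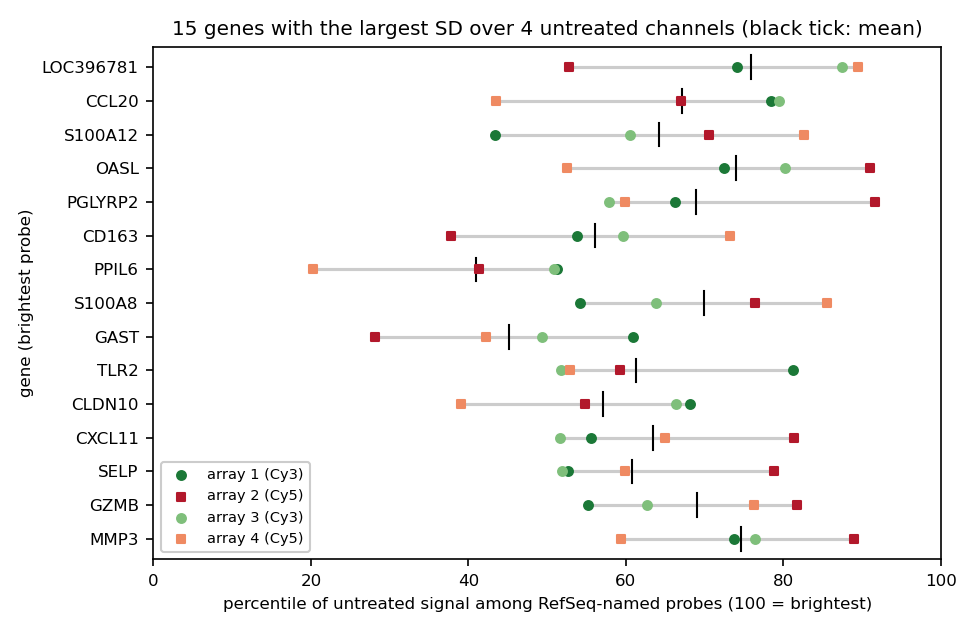
Percentile on each array of the 15 genes with the largest SD among genes well above background on 4 of 4 arrays, with circles for untreated RNA in Cy3, squares for Cy5 and a black tick for the mean. Array 4 is at an end of the range for CCL20 (43.5), S100A12 (82.5), CD163 (73.3) and OASL (52.5), among others.

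Arrays with untreated RNA in Cy5 were then set against those with it in Cy3, a comparison in which dye and animal cannot be told apart. Of the 1465 genes, 272 (18.6%) were higher on both Cy5 arrays than on both Cy3 arrays and 284 (19.4%) were lower. Of the class II genes 7 of 8 were higher on both Cy5 arrays, as were 7 of 12 class I genes, 10 of 26 interferon-induced genes and 4 of 8 smooth muscle genes, and in these 4 lists 0 genes were lower on both. Ribosomal genes were higher on both in 16 of 36 cases and lower in 4. The reverse held for 6 of 14 chaperone genes, 4 of 9 glycolytic genes and 4 of 7 hypoxia genes, with 1 gene of each list higher. JUN and DDIT4 were lower on both Cy5 arrays than on both Cy3 arrays. Of 14 histotroph genes, 5 were lower on both and 1 higher. Epithelial markers gave 1 gene in each direction. In limma's moderated test of Cy5 against Cy3 over 11547 probes, 0 probes passed an adjusted p of 0.05 in either direction, and 595 (5.15%) had an unadjusted p under that threshold. The smallest adjusted p was 0.83.

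In that comparison, the smallest p-values among named genes, each read by its brightest probe, belonged to CXCL9, a chemokine induced by interferon gamma. CXCL9 stood at 72.5 and 71.9 on the Cy3 arrays and at 89.0 and 92.8 on the Cy5 arrays. Its log2 difference of Cy5 minus Cy3 was 2.51 ± 0.40 (moderated SE; limma adjusted p = 0.83). On the other side, the co-chaperone DNAJC12 stood at 85.5 and 85.8 against 63.6 and 70.4, with a log2 difference of -2.33 ± 0.39 (limma adjusted p = 0.83). GZMB, S100A8, S100A12, the ubiquitin-like UBD, the matrix protein MGP and desmin were also among the 10 with the smallest p on the higher side. The stress cytokine GDF15, the kinase PDK1, the prolyl hydroxylase P4HA1 and HSP90B1 were among the 10 on the lower side. None passed the adjusted threshold. The count depended on single arrays: it was 133 probes without array 2, 173 without array 4, 4 without array 3 and 0 without array 1. In each of these fits the dye that lost an array is read on 1 array, which is assumed to vary like the others.

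Probes of the same gene did not always share a level. Of 1568 genes with more than 1 probe, 543 had probes more than 25 percentile points apart, and the median gap was 17.8. Among genes in the top 10%, the widest gaps were those of GNAS, a G protein subunit, whose 16 probes averaged from 6.3 to 95.1, TP23 (4.9 to 92.2), BAG6 (12.4 to 94.3), PRRT1 (11.7 to 90.5), BRD2 (15.9 to 93.3) and LRP10 (18.6 to 95.5). The interferon-induced OAS2 had probes from 21.7 to 93.5. In the first 40, the lowest probe averaged 55.8 for MUC13, 56.2 for MUT, 60.5 for CTSB, 74.2 for ACP5, 77.0 for ITGB3, 77.7 for CYP24A1 and 79.9 for TPT1. All except TPT1, with 17 probes, had 2 to 4 probes, so their places rest on the brightest of their probes. By contrast, the lowest probe of RPS20 averaged 98.0, that of FTH1 98.3 and that of SLPI 98.3.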

How the data were processed

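Per the file headers, the arrays (Agilent design 026440) were read with Feature Extraction 10.7.3.1, and each deposited file lists an intensity per spot and channel. The column used is the software's processed intensity, already corrected by it for background and dye, as deposited. The submitters' value table of ratios was not used.

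For each array the processed signal of the untreated channel was taken by that array's dye label (a labelling text common to the samples can also be taken to mean Cy3 on every array, which is an alternative), outlier spots were left out, spots of 1 probe were averaged and control spots were dropped. Probes were named through RefSeq accessions in the RefSeq gene table (assembly Sscrofa11.1), versions removed, which named 6700 of 43603 probes (15.4%), and these include 211 of the 436 brightest probes (48.4%). No coordinates are given, since the files name no genome build. Percentiles were computed in Python 3.11.15. Outlier spots left 19 genes without a value on 1 array or more.

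The dye comparison used log2 intensities of probes well above background on 4 of 4 arrays, quantile normalised, with lmFit and eBayes of limma 3.58.1 (R 4.3.3), 2 residual and 4.54 prior degrees of freedom, and Benjamini-Hochberg adjustment. It was tested on simulated data.

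The members and the 43 gene lists were chosen with earlier results of these data known, and lists are described by counts and medians, not tested. Genes named are the 40 with the highest mean percentile, the 4 highest and 2 lowest of each list, the orexin genes, the 15 with the largest SD among genes above background on 4 of 4 arrays, the 10 with the widest probe gap in the top 10%, and the 10 with the smallest dye p in each direction. Counting error does not apply to arrays, and their number, 4, limits the precision. Alternatives covered the signal column, the ranking universe, the probe of a gene, outlier spots, the dye of the untreated RNA, each array left out, the detection flag and the normalisation. Some genes that the rule takes are not reported here.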

Additional observations from a re-analysis of the deposited data

Results flagged for a closer look

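In 15 of 329 sets of 4 array values examined (4.56%), the extreme array stood further from the others than Dixon's 95% limit. Chance flags about 1 in 20 such sets. The values are listed without weighing.

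Array 2, which was on another slide, was the extreme in 6 sets. It was the lowest for SLPI (97.2), KLF6 (89.7) and BRD2 (92.1), the highest for VCP (95.7) and PLIN1 (17.7), and the lowest for the median of all named genes (49.03). Array 1 was the lowest for GAPDH (96.2) and the highest for ESR2 (26.7) and for the median of the pituitary and brain list (19.9). Array 3 was the lowest for TSPO (91.9) and GATA2 (52.3) and the highest for NCR1 (17.0). Array 4 was the lowest for the keratin KRT8 (84.8), for clusterin, CLU (76.2), and for the steroid-converting enzyme HSD17B7 (75.9). PLIN1 and ESR2 were not well above background on any array and NCR1 on 1 array, so their values lie in background noise.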

How the results depend on the processing

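The side of the all-gene median on which each of the 43 lists lay was kept for 43 of 43 lists under 9 of the 13 alternatives. The exceptions were 1 list each: the steroid receptor list on the Cy3 arrays alone, and the trophoblast list on the Cy5 arrays alone, without array 1 and without array 3. The first 40 genes shared 30 (median over the probes of a gene) to 39 members with the order given above. The count of genes above background on 4 of 4 arrays ran from 1431 (untreated RNA read as Cy3 throughout) to 1485, with 2033 under the other detection flag, 2115 on the Cy5 arrays alone, 2125 for at least 2 arrays and 1482 to 1637 with an array left out.

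When genes were ranked among all 43603 probes, the median of all named genes became 71.92, and the list medians rose to 93.1 (epithelial), 88.0 (fibroblast), 88.5 (smooth muscle), 91.1 (endothelial), 82.7 (macrophage), 65.5 (T and NK cell), 41.0 (adipocyte), 70.6 (trophoblast) and 47.3 (nerve). With the median over probes, all genes had 42.27 and the medians were 76.8 (epithelial), 55.6 (smooth muscle), 63.0 (endothelial), 13.1 (adipocyte) and 29.1 (trophoblast). The trophoblast median was 41.6 on the Cy3 arrays alone. The adipocyte median, 23.2, became 19.8 with normexp, 19.9 with the raw median signal, 26.6 with Cy3 throughout, 27.3 on the Cy3 arrays, 17.9 on the Cy5 arrays and 21.8 to 26.1 with an array left out. The cause of these shifts was not tested. The lowest Spearman correlation was 0.905 among probes above background on all arrays. The dye comparison called 0 to 173 probes with an array left out and 0 under its 4 other alternatives.

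No probe annotation other than the accessions was used, so the naming alternative was not run. No paired analysis was possible because all 4 samples belong to 1 group. Levels below about the 50th percentile are limited by background on the Cy3 arrays, where 50.2% and 54.0% of named probes were well above it.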

Other observations

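Of 91 solute carriers and transporters, 33 were well above background on 4 of 4 arrays and 3 had a mean of 90 or more, with a median of 40.9 ± 3.0 (SD of the 4 array medians), against 49.0 for all named genes. The 2 brightest carry molecules across the inner mitochondrial membrane, SLC25A6 for adenine nucleotides (97.8 ± 0.78) and SLC25A3 for phosphate (95.5 ± 0.52). The choline transporter SLC44A4 stood at 93.9, 90.3, 92.5 and 85.1, lowest on array 4. The water channel AQP4 (1.9 ± 0.87) and the anion exchanger SLC26A4 (2.8 ± 1.8) were not well above background on any array.

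Cell cycle genes had a median of 40.6 over 13, with 6 above background on 4 of 4 arrays. The inhibitor CDKN1B was the brightest at 86.7 ± 2.0, and the mitotic genes CCNB2 (20.5 ± 15) and CDC20 (9.9 ± 4.6) were above background on 1 array each. Of 17 cell death genes, 14 were above background on 4 of 4 arrays, with a median of 66.2. CASP10 stood at 97.3 ± 0.76, though the lowest of its 6 probes averaged 49.3, and the receptor TNFRSF1A at 93.8 ± 1.0, the adaptor FADD at 86.6 ± 2.9 and the caspase inhibitor CFLAR at 86.3 ± 0.98. Lipid and sterol genes had a median of 60.1 over 26, led by the fatty acid binding protein FABP5 at 84.9, 90.5, 93.6 and 91.2, with array 1 the lowest. FABP4 and LPL, which are also adipocyte markers, stood at 28.2 ± 6.2 and 23.2 ± 7.2. The matrix list had a median of 59.6 over 15, with thrombospondin 1 (THBS1) at 90.2 ± 2.3, the laminin chain LAMC1 at 90.05 ± 2.5 and SPARC at 86.3, 77.3, 90.2 and 90.3, where array 2 was the lowest.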
